A study of Mus musculus with 24 samples.

Results

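Fgf5, Otx2, Pou3f1, Utf1, Sall2, Zic2, Grhl2 and Sox4 are 8 genes that rise when mouse embryonic stem cells (mESCs) leave naive pluripotency for the formative and primed states. They were chosen by symbol, joined to the Entrez IDs of a table of 24594 genes, and all 8 were found and passed the filter on low counts that left 15682 genes for testing. Their RNA was read in 24 RNA-seq libraries of mESCs of the 129S6/SvEvTac line, which were made in 5 batches (A to E) with wild-type (WT) cells in each. Batch A held 2 WT libraries, 2 Rsf1Δ libraries and 2 WstfΔ libraries, so Rsf1Δ and WstfΔ share their controls. Batches B, C and E each held 2 WT libraries beside 2 of Tip5Δ, BptfΔ and Acf1Δ, respectively, and batch D held 3 WT libraries and 3 labelled Cecr2Δ. Per the methods, cells were grown in serum with LIF, every deletion was made by CRISPR–Cas9 and each genotype stands on 1 representative clone, so that a change of a line cannot be told apart from a change of its clone. The deleted genes encode accessory subunits of ISWI chromatin remodelers: RSF1 of RSF, TIP5 (gene Baz2a) of NoRC, CECR2 of CERF, ACF1 (gene Baz1a) of ACF and CHRAC, WSTF (gene Baz1b) of WICH and BPTF of NURF.

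Naive pluripotency is the state of the epiblast before implantation and is held in culture by LIF. After implantation the epiblast passes through a formative state, in which it becomes able to form germ layers and germ cells, into a primed state. Fgf5 is a secreted growth factor used as a marker of that later epiblast. Otx2, a homeodomain factor, and Pou3f1 (also called Oct6), a POU factor, are transcription factors of the transition, and OTX2 directs OCT4 to enhancers used after exit from the naive state. Utf1 encodes a chromatin-bound protein of pluripotent cells that is already abundant in mESCs. Sall2 and Zic2 encode zinc finger factors, Grhl2 a Grainyhead-like factor that opens enhancers of epithelial genes, and Sox4 an HMG-box factor of the SoxC group. mESCs in serum with LIF are a mixture of more naive and more advanced cells.

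RNA of 7 of these genes was lower in WstfΔ, where Utf1 was higher, and RNA of 7 was lower in BptfΔ, where Sall2 was not called. In Acf1Δ 6 were lower, in Rsf1Δ 3 were lower, in Tip5Δ none was called, and 6 were higher in the libraries labelled Cecr2Δ. A gene was called changed at an edgeR adjusted p under 0.01 and a differentially expressed gene (DEG) where the absolute log2 fold change was also over 1. Over 48 comparisons of a gene with a line, 32 were changed, 23 of them lower and 9 higher, and 17 were DEGs, 16 lower and 1 higher. These are bulk samples, so fewer cells that express a gene and less RNA per cell cannot be told apart. The methods call the replicates independent and the reporting summary calls them biological, without saying whether they were separate cultures of the clone. P-values measure only the spread between these libraries, which may be technical if they were not.

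In BptfΔ, 7 of 8 genes were DEGs that fell, against 8.59% of all genes tested, and none rose (5.25%). Without the fold minimum the counts were the same 7 lower and 0 higher, against 20.2% and 21.4% of all genes. In WstfΔ, 6 genes were lower DEGs (6.57% of all genes) and 0 higher (3.87%), while 7 were lower (18.3%) and 1, Utf1, was higher (16.4%) at any fold. The gene outside the call in BptfΔ was Sall2, and the gene that moved the other way in WstfΔ was Utf1.

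In Acf1Δ, Fgf5 and Zic2 were lower DEGs, 2 of 8 against 3.32% of all genes, and 0 were higher (1.14%). At any fold 6 genes were lower there (16.7%) and 1, Utf1, higher (15.1%). In Rsf1Δ, 1 gene, Fgf5, was a lower DEG (5.26%) and 0 were higher (0.65%), while 3 were lower (13.1%) and 1 higher (7.45%) at any fold. No gene of the 8 was called in Tip5Δ, where 2.63% of all genes were lower and 0.0829% higher DEGs and 6.23% and 2.84% were lower and higher at any fold. By an unadjusted p under 0.05 the edgeR test named 2 of the 8 there, Utf1 and Sall2, against 28.2% of all genes tested, which is near the background. DESeq2 called 0 at an adjusted p under 0.01. In the libraries labelled Cecr2Δ, 1 gene, Fgf5, was a higher DEG (0.784%) and 0 lower (2.33%), and 6 were higher (9.52%) and 0 lower (8.83%) at any fold.

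The median log2 fold change of the 8 genes was -2.10 in BptfΔ and -1.81 in WstfΔ, against 0.01 and -0.03 over all genes tested. Acf1Δ had a median of -0.56, Rsf1Δ of -0.23, Tip5Δ of 0.05 and the libraries labelled Cecr2Δ of 0.70, where the medians of all genes were -0.03, 0.00, -0.01 and -0.00. The change differed between the 6 lines for 8 of 8 genes (quasi-likelihood F-test with 5 degrees of freedom), as it did for 65.3% of all genes tested. That share is high, so the count of 8 says little about these genes, and the sizes of the changes are given below.

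**Figure D1:**
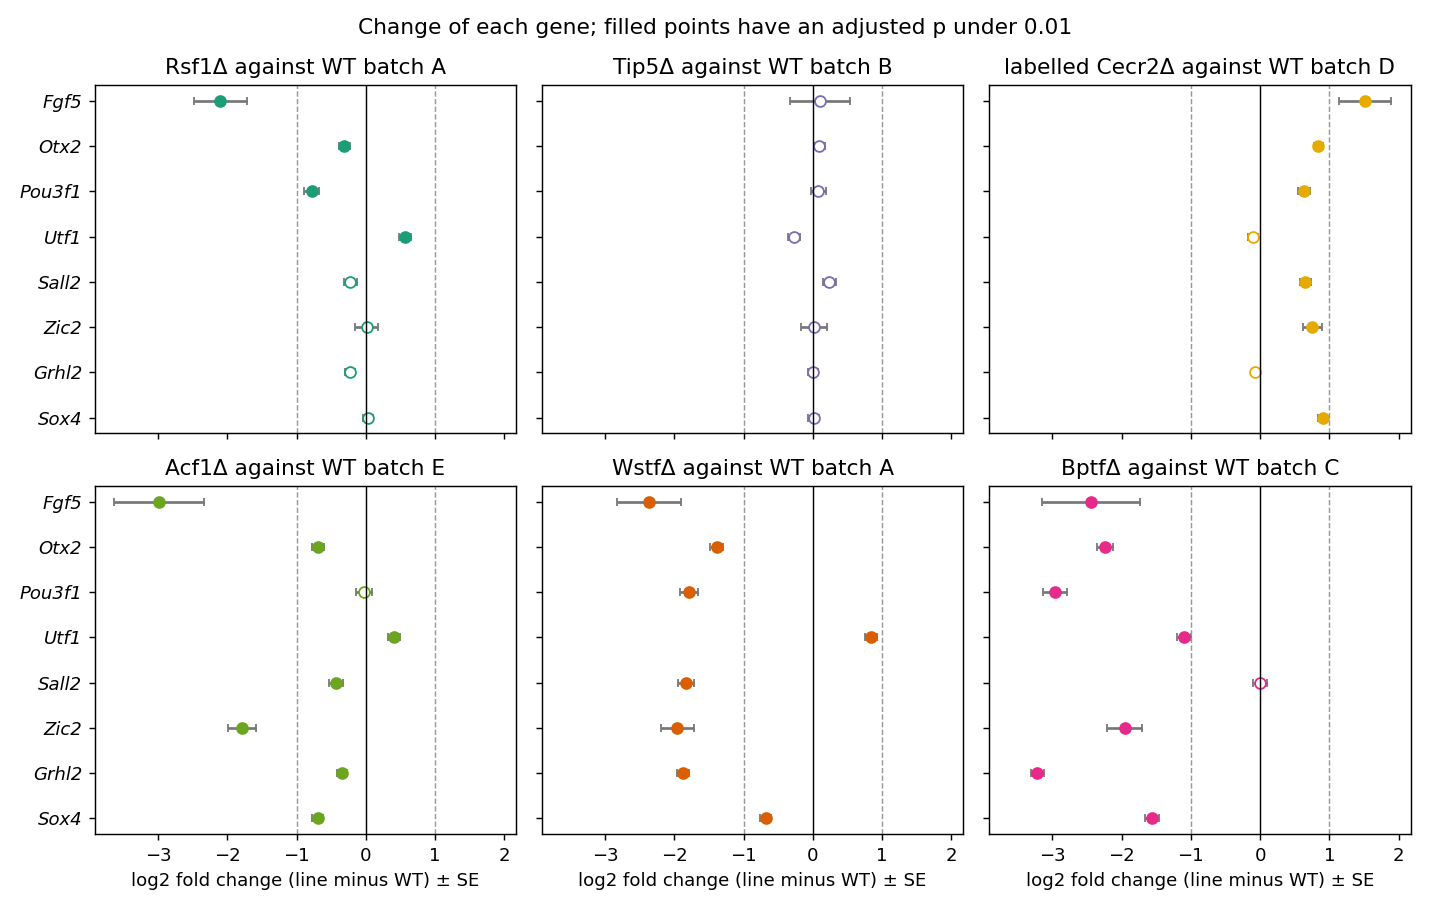
Log2 fold change of the 8 genes (x axis, line minus WT of the same batch, with the standard error as bars) in the 6 lines (panels). Filled points have an edgeR adjusted p under 0.01 and dashed lines mark an absolute log2 fold change of 1; in BptfΔ all points but Sall2 lie left of -1, and in Tip5Δ all points are open.

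Libraries held between 13.4 and 36.7 M counts, with a median of 25.0 M, so that 3 counts correspond to between 0.0837 and 0.22 normalized CPM (CPM, counts scaled to the library). Pou5f1 RNA was between 990 and 1726 normalized CPM and Nanog RNA between 373 and 757 in the 24 libraries, both being markers of mESCs. RNA of the targeted gene was lower by 1.72 to 2.40 on the log2 scale in 4 lines (Rsf1Δ, Acf1Δ, WstfΔ and BptfΔ) and was not called in Tip5Δ (log2 fold change of Baz2a -0.26, edgeR adjusted p = 0.0533). Cecr2 RNA was higher in the libraries labelled Cecr2Δ (log2 fold change 0.37, edgeR adjusted p = 0.000154), and results on them are given by label. RNA levels thus do not check the Tip5Δ and Cecr2Δ labels, whereas per the methods the clones were picked by western blot and DNA sequencing, which are not analysed here. The 4 libraries of batch C, WT and BptfΔ alike, differ from the rest in holding Rpph1, an RNA without a poly(A) tail, at a mean of 3393 and 4429 normalized CPM, while no group mean of the other batches was above 2.98. BptfΔ was compared only within that batch, and leaving batch C out moved 1 call of a gene in the other lines (Otx2 in Rsf1Δ, below).

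The 250 bases before annotated starts are shown for Utf1 and Sall2, which set WstfΔ and BptfΔ apart, and for Otx2 and Sox4, which fell in both. The RefSeq promoter table (GRCm38.p6) held starts of 5 of the 8 genes, 9 in all, and no entry for Pou3f1, Zic2 and Grhl2. The Utf1 window is chr7:139943606-139943855 on the plus strand. On the minus strand lie chr14:52328671-52328920 and chr14:52316324-52316573 for the upstream and downstream starts of Sall2, chr14:48667645-48667894 for the most upstream of 4 Otx2 starts, and chr13:28953700-28953949 for Sox4. Sequences run 5′ to 3′ on the gene's strand, and capitals mark matches, on either strand, to 5 motifs: the GC box, written GGGCGG, the CCAAT box, the TATA box as TATAAA, the octamer of POU factors as ATGCAAAT, and the motif of OTX factors as TAATCC.
Utf1: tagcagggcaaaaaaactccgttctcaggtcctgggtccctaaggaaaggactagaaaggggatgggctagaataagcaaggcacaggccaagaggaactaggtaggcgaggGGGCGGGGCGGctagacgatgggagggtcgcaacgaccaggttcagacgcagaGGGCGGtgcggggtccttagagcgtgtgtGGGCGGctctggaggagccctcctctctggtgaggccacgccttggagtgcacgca
Sall2 upstream: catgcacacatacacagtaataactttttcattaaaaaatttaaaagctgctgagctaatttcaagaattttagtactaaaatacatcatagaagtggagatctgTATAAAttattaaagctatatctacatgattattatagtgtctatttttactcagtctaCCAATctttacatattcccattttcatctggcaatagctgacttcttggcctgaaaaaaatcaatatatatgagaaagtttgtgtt
Sall2 downstream: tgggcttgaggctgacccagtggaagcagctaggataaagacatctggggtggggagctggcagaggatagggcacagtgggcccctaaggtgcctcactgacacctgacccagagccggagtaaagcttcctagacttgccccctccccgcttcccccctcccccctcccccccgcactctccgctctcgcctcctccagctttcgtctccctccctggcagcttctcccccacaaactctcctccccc
Otx2 upstream: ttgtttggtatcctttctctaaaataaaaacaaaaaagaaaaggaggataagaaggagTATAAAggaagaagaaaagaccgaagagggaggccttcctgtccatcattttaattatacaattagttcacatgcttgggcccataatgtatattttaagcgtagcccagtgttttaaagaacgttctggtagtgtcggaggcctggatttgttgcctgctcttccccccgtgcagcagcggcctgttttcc
Sox4: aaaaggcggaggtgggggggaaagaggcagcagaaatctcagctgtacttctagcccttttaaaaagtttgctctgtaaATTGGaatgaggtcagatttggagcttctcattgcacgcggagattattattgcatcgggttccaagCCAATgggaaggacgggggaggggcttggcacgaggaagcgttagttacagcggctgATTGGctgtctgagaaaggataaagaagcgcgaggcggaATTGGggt

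The Utf1 window holds 4 GC boxes, of which the first pair share 1 base, and 14 CpG dinucleotides. A GC box occurs in 32.7% of 32851 promoter windows of this length, whose median is 6 CpGs. Sox4 has 4 CCAAT matches, which 33.8% of windows hold at least once, and 11 CpGs. The upstream Sall2 window has 0 CpGs, a GC content of 28.0% (median over all windows 52.4%), 1 CCAAT match and 1 TATAAA match, whereas the downstream Sall2 window has 6 CpGs, a GC content of 64.4% and no match to the 5 motifs. TATAAA, found in 12.4% of windows, is also in the Otx2 window shown. The OTX motif (6.25% of windows) was found before 1 other Otx2 start and the octamer (1.6%) before no start of the 5 genes. These matches describe letters only.

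Levels of the 8 genes in WT were compared per length, as normalized CPM divided by the gene width in kilobases that the authors deposited. Utf1 had the highest level, with a median of 168 CPM per kilobase over 11 WT libraries (range 84.0 to 374). Grhl2 followed at 8.99, Sox4 at 6.21, Otx2 at 5.43, Sall2 at 4.13, Pou3f1 at 3.98, Zic2 at 2.02 and Fgf5 at 0.245. The ranges of Grhl2 and Sox4, of Sox4 and Otx2, of Otx2 and Sall2 and of Sall2 and Pou3f1 overlap over the 11 libraries. Library by library, Otx2 was nevertheless above Sall2 in 11 of 11, while Grhl2 was above Sox4 in 7, Sall2 above Pou3f1 in 7 and Sox4 above Otx2 in 2, so the order of these last 3 pairs is not settled. Utf1 lies above Grhl2, Pou3f1 above Zic2 and Zic2 above Fgf5 without overlap.

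WT levels differed between batches, which matters for reading each line. The mean of the highest WT batch over that of the lowest was 8.73-fold for Fgf5, 4.08-fold for Utf1 and between 1.62-fold and 2.52-fold for the others. Batch A had the highest WT mean for 7 of the 8 genes, with Utf1 highest in batch D, and batch D had the lowest WT mean for Fgf5, Otx2, Sall2, Zic2 and Sox4. Of the 23 comparisons called lower, 16 had a line mean below all 11 WT libraries, while of the 9 called higher 1 had a mean above all of them (Utf1 in Acf1Δ). That mean, 459.8 normalized CPM, passed the highest WT library (458.9) only narrowly, and Acf1Δ replicate 2 (456.5) was below it. In 3 DEGs the line mean was neither below nor above all 11 WT libraries, those of Fgf5 in Rsf1Δ, WstfΔ and the libraries labelled Cecr2Δ.

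**Figure D2:**
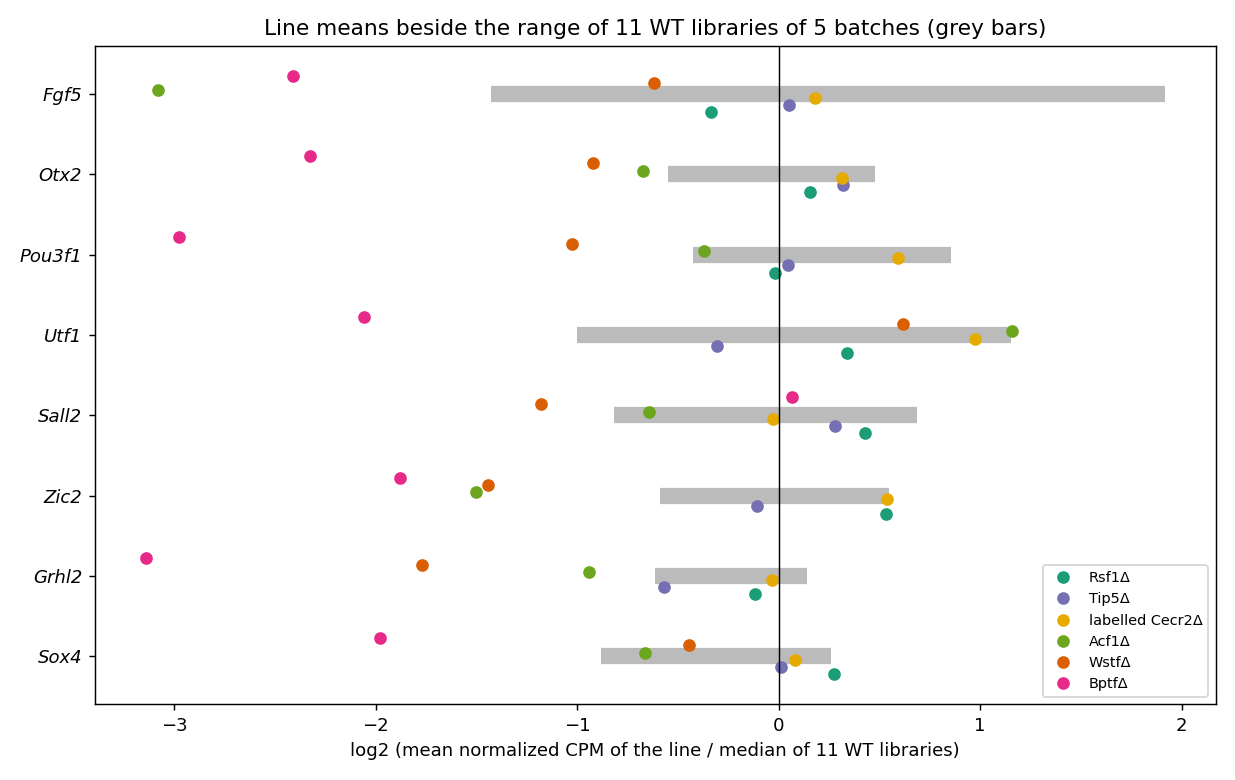
Mean normalized CPM of each line (points) relative to the median of 11 WT libraries, on a log2 axis, beside the range of these WT libraries (grey bars), for each of the 8 genes. BptfΔ lies left of the bar for 7 genes, all but Sall2, and WstfΔ for 5 (Otx2, Pou3f1, Sall2, Zic2 and Grhl2).

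Otx2 (gene ID 18424, chromosome 14 from 48656781 to 48667644, minus strand) showed graded levels across the lines. In batch C it was at 22.9 and 20.4 normalized CPM in WT and at 4.19 and 4.97 in BptfΔ. In batch A it was at 32.0 and 31.4 in WT, at 11.7 and 12.5 in WstfΔ and at 26.0 and 25.1 in Rsf1Δ. Each library of these 3 lines was below both WT libraries of its batch, and WstfΔ and BptfΔ libraries were also below all 11 WT libraries. The fall was 4.73-fold in BptfΔ (log2 fold change -2.24 ± 0.11 SE, edgeR adjusted p = 2.29e-15) and 2.62-fold in WstfΔ (-1.39 ± 0.092, 2.01e-12). In Rsf1Δ it was 1.24-fold (log2 fold change -0.31 ± 0.079, edgeR adjusted p = 0.00318), and this call was lost when any library of batch A that it uses was left out (adjusted p between 0.0166 and 0.045), with the replicate block (0.0135) or without batch C (0.0121). Acf1Δ libraries were at 13.8 and 14.9 against 24.4 and 22.0 in WT, a change of -0.69 ± 0.083 (edgeR adjusted p = 2.71e-07). The libraries labelled Cecr2Δ were at 29.4, 28.2 and 27.9 against 15.9, 16.0 and 15.7, a log2 fold change of 0.84 ± 0.065 (edgeR adjusted p = 8.54e-11). The latter rise starts from the lowest WT batch and ends inside the range of the other WT batches. Tip5Δ (29.6 and 27.6) lay just above WT of batch B (27.3 and 26.4) and was not called.

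Pou3f1 (gene ID 18991, chromosome 4 from 124657646 to 124660655, plus strand, a single exon) had its lowest level in BptfΔ. There it was at 2.45 and 1.44 normalized CPM, against 14.6 and 15.8 in WT of batch C, a 7.80-fold fall (log2 fold change -2.96 ± 0.17 SE, edgeR adjusted p = 7.52e-14). In batch A, WT libraries were at 27.7 and 24.2, WstfΔ at 7.01 and 8.05 and Rsf1Δ at 16.2 and 14.0. The 3 groups of batch A did not overlap, with log2 fold changes of -1.79 ± 0.13 in WstfΔ (edgeR adjusted p = 1.17e-11) and -0.78 ± 0.11 in Rsf1Δ (2.22e-06). The Rsf1Δ libraries, however, were close to the WT libraries of batches B, C and D, which ran from 13.6 to 15.8. Acf1Δ stood at 12.2 and 11.5 and its WT at 11.4 and 12.7, so these groups overlap (log2 fold change -0.02 ± 0.12, edgeR adjusted p = 0.893). Pou3f1 was thus the gene of the 8 that was not called in Acf1Δ. The libraries labelled Cecr2Δ (22.2, 23.8 and 23.2) were above their WT (13.6, 15.3 and 15.6), by 0.64 ± 0.085 on the log2 scale (edgeR adjusted p = 1.75e-06), and Tip5Δ (16.6 and 15.1) overlapped its WT (14.4 and 15.5).

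**Figure D3:**
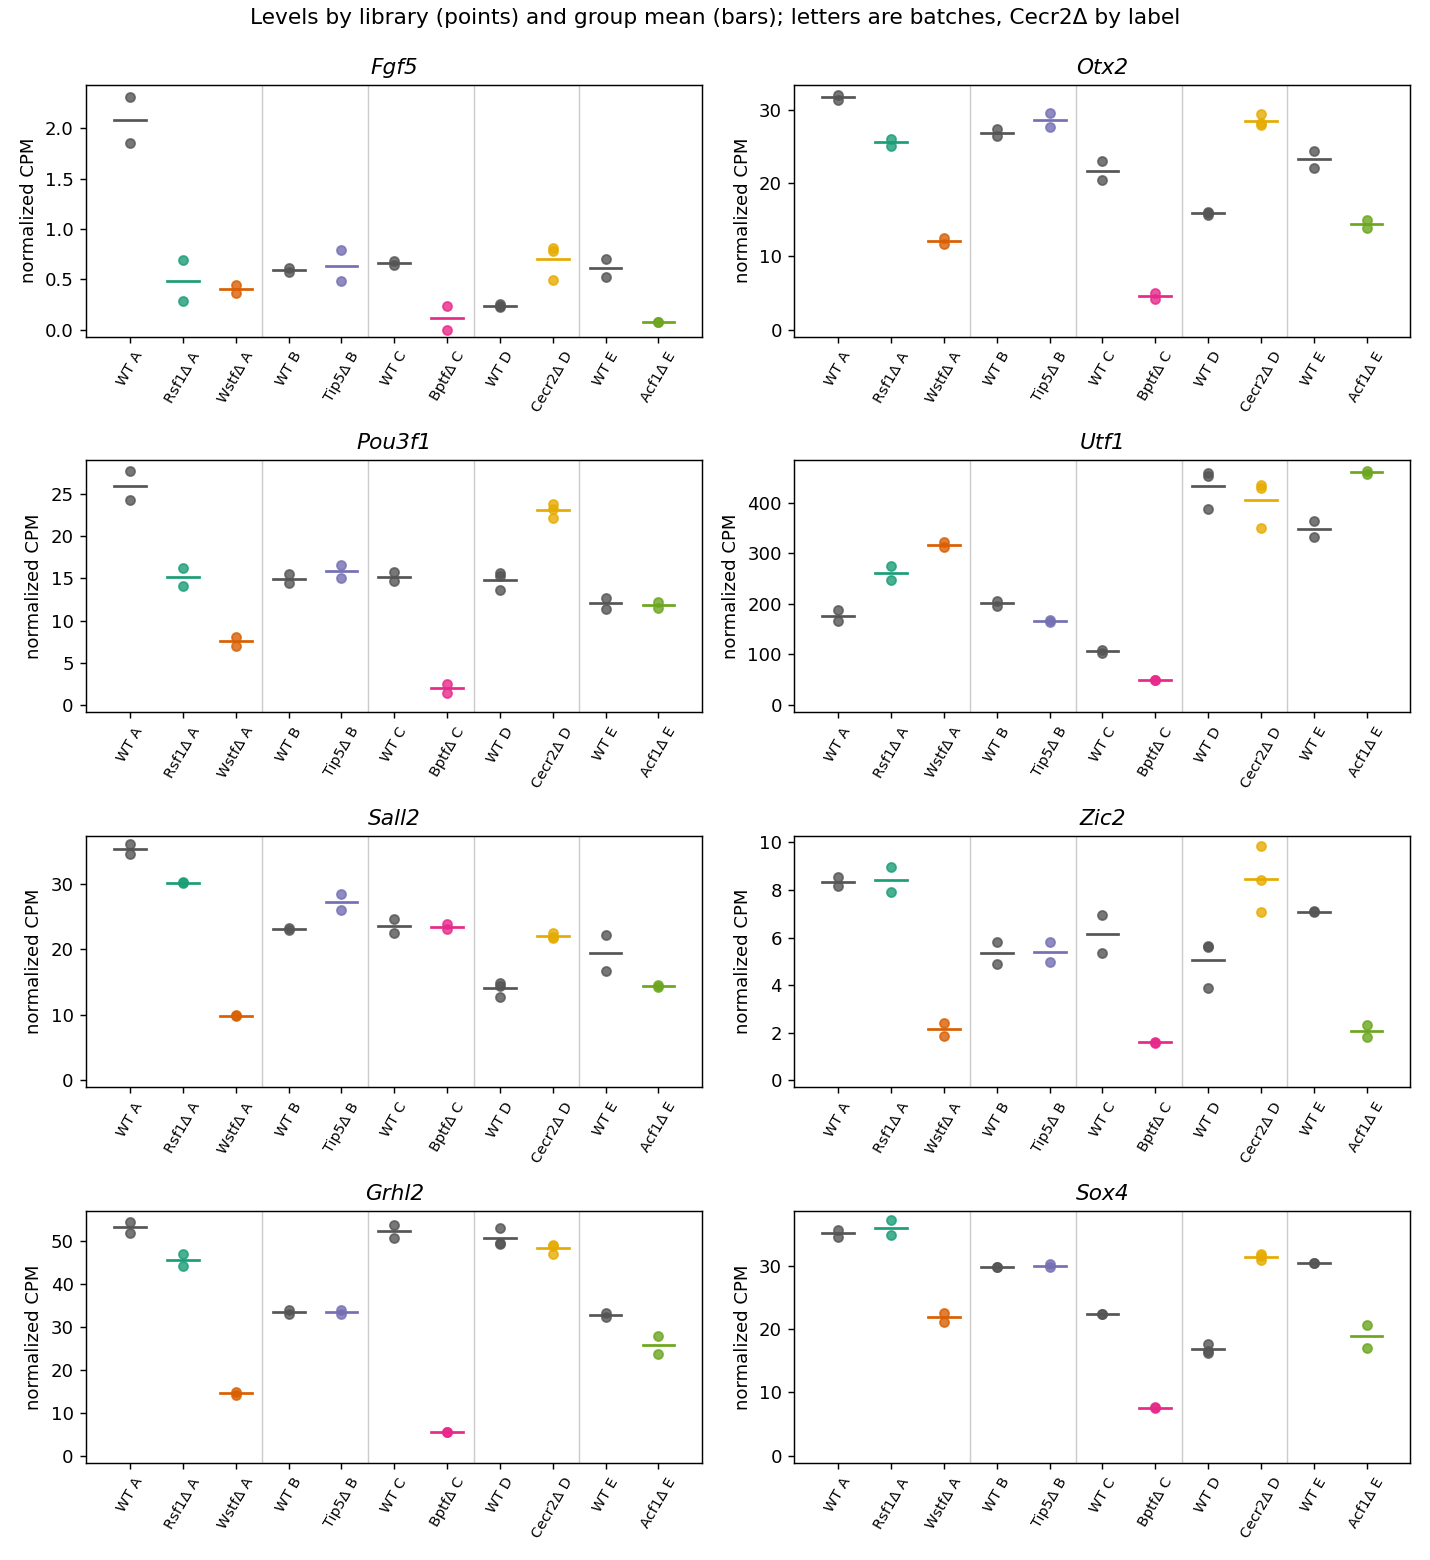
Normalized CPM (y axis, linear, a scale for each gene) of the 8 genes in each of 24 libraries (points) with group means (bars), ordered by batch; grey is WT and colours are lines. The BptfΔ points of Grhl2, at 5.63 and 5.60, lie far below the WT points of batch C at 50.8 and 53.9, while those of Sall2 lie among them.

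Grhl2 (gene ID 252973, chromosome 15 from 37232821 to 37363569, plus strand) had the largest fall of the 8 genes in a single line by point estimate. The wide intervals of Fgf5 in Acf1Δ and BptfΔ (below) reach larger falls. In BptfΔ Grhl2 was at 5.63 and 5.60 normalized CPM, against 50.8 and 53.9 in WT, a 9.30-fold fall (log2 fold change -3.22 ± 0.097 SE, edgeR adjusted p = 6.46e-20). In WstfΔ it was at 14.2 and 14.9, against 54.6 and 52.0 in WT, a 3.67-fold fall (-1.87 ± 0.085, 7.02e-16). Both lines lay below all 11 WT libraries, the lowest of which was at 32.4. In Acf1Δ (27.8 and 23.8, WT 32.4 and 33.3) the log2 fold change was -0.35 ± 0.074 (edgeR adjusted p = 0.000445), a call lost without Acf1Δ replicate 2 (0.027) or with only the libraries of batch E (0.0569). Rsf1Δ (44.1 and 47.1) lay below WT of batch A without a call (edgeR adjusted p = 0.0162). Grhl2, like Utf1, was not called in the libraries labelled Cecr2Δ, which were at 49.2, 49.0 and 47.1 against 49.5, 53.2 and 49.5 (log2 fold change -0.07 ± 0.056, edgeR adjusted p = 0.401). Tip5Δ (33.0 and 33.9) overlapped its WT (33.9 and 33.1). Gm16136, an antisense transcript within Grhl2, had a mean of at most 1.14 normalized CPM in any group and was also lower in BptfΔ, with at most 4 counts there (log2 fold change -3.21 ± 0.71, edgeR adjusted p = 0.000437), and Gm16137 and Gm16138 are annotated on the same strand as it.

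Zic2 (gene ID 22772, chromosome 14 from 122475384 to 122480328, plus strand) fell to like levels in 3 lines of 3 batches. It was at 1.88 and 2.41 normalized CPM in WstfΔ (WT 8.18 and 8.53), at 1.62 and 1.56 in BptfΔ (WT 6.93 and 5.37) and at 2.31 and 1.80 in Acf1Δ (WT 7.11 and 7.07). All of these line libraries were below all 11 WT libraries, whose lowest value was 3.87. The log2 fold changes were -1.96 ± 0.23 SE in WstfΔ (edgeR adjusted p = 1.21e-07), -1.96 ± 0.25 in BptfΔ (3.13e-07) and -1.79 ± 0.20 in Acf1Δ (1.18e-07), or falls of 3.89-fold, 3.88-fold and 3.45-fold. Rsf1Δ (8.98 and 7.90) and Tip5Δ (5.82 and 4.99) overlapped their WT libraries. In the libraries labelled Cecr2Δ Zic2 was at 7.07, 9.87 and 8.43 against 3.87, 5.66 and 5.62, without overlap (log2 fold change 0.76 ± 0.14, edgeR adjusted p = 0.000109). Zic5, a zinc finger gene of the same family, lies 9757 bases away on the opposite strand, so that the pair is divergently arranged. It was lower in the same 3 lines, with log2 fold changes of -1.87 ± 0.16 in BptfΔ, -1.50 ± 0.12 in Acf1Δ and -1.18 ± 0.14 in WstfΔ (edgeR adjusted p at most 5.41e-08), and higher in the libraries labelled Cecr2Δ (0.74 ± 0.086, 1.70e-07).

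Sox4 (gene ID 20677, chromosome 13 from 28948919 to 28953699, minus strand, a single exon) changed in 4 lines. In BptfΔ it was at 7.48 and 7.63 normalized CPM, against 22.4 and 22.3 in WT, a log2 fold change of -1.56 ± 0.10 SE (edgeR adjusted p = 5.46e-13). WstfΔ was at 21.2 and 22.5 (WT 35.7 and 34.6) and Acf1Δ at 20.6 and 17.1 (WT 30.4 and 30.5). In neither case did the line overlap its WT, and the log2 fold changes were -0.68 ± 0.083 and -0.69 ± 0.078 (edgeR adjusted p = 1.56e-07 and 1.05e-07), under the fold minimum of a DEG. Neither line mean was below all 11 WT libraries, of which the lowest were those of batch D at 16.1, 16.6 and 17.7. Against these, the libraries labelled Cecr2Δ were at 30.9, 31.9 and 31.6 (log2 fold change 0.91 ± 0.063, edgeR adjusted p = 1.15e-11). Rsf1Δ (37.1 and 34.8) and Tip5Δ (29.8 and 30.2) overlapped their WT libraries.

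Sall2 (gene ID 50524, chromosome 14 from 52311177 to 52328670, minus strand) separated WstfΔ from BptfΔ. In batch A it was at 34.6 and 36.0 normalized CPM in WT, at 9.97 and 9.80 in WstfΔ and at 30.2 in both Rsf1Δ libraries. In batch C it was at 22.4 and 24.6 in WT and at 23.8 and 23.1 in BptfΔ. WstfΔ was thus 3.57-fold lower and below all 11 WT libraries (log2 fold change -1.84 ± 0.11 SE, edgeR adjusted p = 5.05e-13), while the BptfΔ libraries lay between their WT libraries (-0.00010 ± 0.10). Rsf1Δ was not called (log2 fold change -0.23 ± 0.093, edgeR adjusted p = 0.0676). In Acf1Δ (14.2 and 14.5, WT 16.6 and 22.1) the change of -0.43 ± 0.10 (edgeR adjusted p = 0.00112) rested on WT replicate 2, without which it was -0.22 (0.0942). With only the libraries of batch E it was not called either (0.0354). The libraries labelled Cecr2Δ (21.7, 22.4 and 21.8) were above their WT (14.4, 12.7 and 14.9), by 0.65 ± 0.080 on the log2 scale (edgeR adjusted p = 4.68e-07). Tip5Δ, at 26.0 and 28.4, lay above WT at 23.0 and 23.2 without a call (edgeR adjusted p = 0.0989).

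Utf1 (gene ID 22286, chromosome 7 from 139943856 to 139945112, plus strand) was higher in 3 lines, in each of which at least 3 of the other genes were lower. In batch A it was at 188 and 166 normalized CPM in WT, at 311 and 322 in WstfΔ and at 274 and 248 in Rsf1Δ. In batch E it was at 332 and 363 in WT and at 463 and 456 in Acf1Δ. None of these lines overlapped its WT, and the log2 fold changes were 0.84 ± 0.089 SE in WstfΔ (edgeR adjusted p = 1.31e-08), 0.56 ± 0.088 in Rsf1Δ (1.28e-05) and 0.40 ± 0.086 in Acf1Δ (0.000441). The call in Acf1Δ was lost without WT replicate 1 of batch E (edgeR adjusted p = 0.0151). In BptfΔ, by contrast, Utf1 was at 49.9 and 49.2 against 109 and 103, a 2.14-fold fall to below all 11 WT libraries (log2 fold change -1.10 ± 0.097, edgeR adjusted p = 3.22e-10). The WT libraries of batch C were already the lowest of all WT libraries for Utf1. Tip5Δ was at 165 and 168, below WT at 196 and 206 (log2 fold change -0.27 ± 0.088, edgeR adjusted p = 0.0344), and was called with no filter on low counts (0.00234) or with only the libraries of batch B (5.45e-09). The libraries labelled Cecr2Δ, at 429, 435 and 350, overlapped their WT at 388, 453 and 459.

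Fgf5 (gene ID 14176, chromosome 5 from 98254184 to 98277033, plus strand) was near the limit of detection. It had 58 and 43 counts (2.31 and 1.85 normalized CPM) in WT of batch A and between 7 and 19 counts (at most 0.70 normalized CPM) in WT of batches B to E. Rsf1Δ had 16 and 7 counts (0.687 and 0.285 normalized CPM) and WstfΔ 5 and 6 (0.361 and 0.439). Both lines were below WT of batch A and within the range of the other WT batches. The log2 fold changes were -2.10 ± 0.38 SE in Rsf1Δ (edgeR adjusted p = 0.000101) and -2.37 ± 0.46 in WstfΔ (0.000116). In Rsf1Δ the change was -1.59 without replicate 2, which lost the call, and -2.85 without replicate 1, each leaving 1 Rsf1Δ library.

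Fgf5 was at 2 counts in each Acf1Δ library (0.0746 and 0.0706 normalized CPM) and at 19 and 14 in WT of batch E. BptfΔ libraries had 0 and 4 counts (0.00 and 0.231 normalized CPM) and their WT 13 and 11. With so few counts the ratio of summed counts at equal depth is the safer measure: it was 0.119 in Acf1Δ (exact 95% interval 0.0306 to 0.335, counting error only) and 0.177 in BptfΔ (0.0447 to 0.516). The edgeR log2 fold changes were -2.99 ± 0.65 SE in Acf1Δ (adjusted p = 0.000567) and -2.45 ± 0.71 in BptfΔ (edgeR adjusted p = 0.0049). The call in BptfΔ was lost without either WT library of batch C (0.0243 and 0.0159) or without BptfΔ replicate 1, the library with 0 counts (0.0901). Its log2 fold change was -1.50 without that replicate and -7.07 without replicate 2, which leaves only the library at 0 and gives no measure of size. The libraries labelled Cecr2Δ had 22, 17 and 29 counts against 9, 7 and 7, a ratio of 2.89 (1.78 to 4.86). Its edgeR log2 fold change of 1.52 ± 0.38 (adjusted p = 0.00344) was no longer called on leaving out any single library of batch D but replicate 2 of the line (between 0.0112 and 0.0216). Tip5Δ, with 11 and 19 counts, overlapped its WT (16 and 15).

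WstfΔ and Rsf1Δ share batch A and were compared directly. The genes Otx2, Pou3f1, Sall2, Zic2, Grhl2 and Sox4, were lower in WstfΔ than in Rsf1Δ, or 6 of 8 against 15.8% of all genes tested, and 0 were higher (17.5%). The differences ran from -0.72 ± 0.083 SE for Sox4 to -1.97 ± 0.23 for Zic2 on the log2 scale (edgeR adjusted p at most 1.09e-06). For Fgf5 the difference was -0.27 ± 0.58 (edgeR adjusted p = 0.742), which leaves a wide interval, and for Utf1 it was 0.28 ± 0.088 (0.011).

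The change in BptfΔ was also set against that in WstfΔ, a contrast chosen after the values of both lines were seen, which spans 2 batches with a WT group each. Batch C also differs from batch A in its Rpph1 RNA, as given above. Otx2, Pou3f1, Utf1, Grhl2 and Sox4 were lower in BptfΔ relative to WstfΔ, 5 of 8 against 10.3% of all genes, and 1, Sall2, was higher (10.9%). The difference was -1.94 ± 0.13 SE for Utf1, -1.34 ± 0.14 for Grhl2, -1.18 ± 0.23 for Pou3f1, -0.88 ± 0.13 for Sox4 and -0.85 ± 0.15 for Otx2 (edgeR adjusted p at most 0.000316). Sall2 differed by 1.84 ± 0.16 (edgeR adjusted p = 6.48e-10). Zic2 and Fgf5 did not pass the test, with differences of 0.0024 and -0.08. Their changes had SEs of 0.23 and 0.46 in WstfΔ and of 0.25 and 0.71 in BptfΔ, so the intervals are wide and equal change is not shown.

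**Figure D4:**
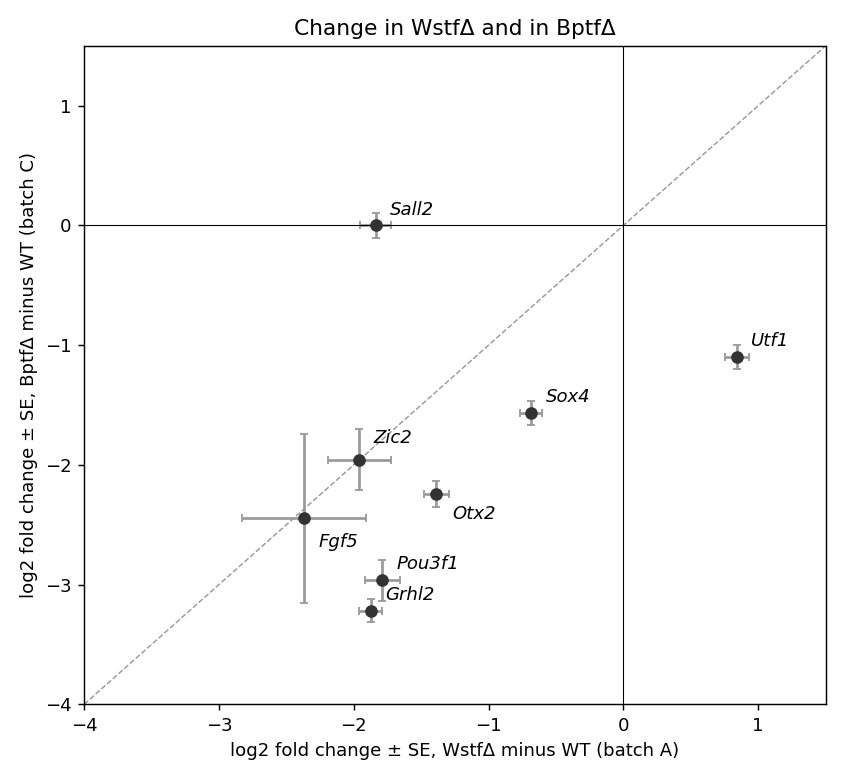
Log2 fold change with its standard error in WstfΔ (x axis, against WT of batch A) and in BptfΔ (y axis, against WT of batch C) for the 8 genes, with the line of equal change dashed. Sall2, at -1.84 and -0.00010, lies above that line and Utf1, at 0.84 and -1.10, below it, while Zic2 and Fgf5, with wide errors, lie close to it.

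Counts of other gene lists at any fold are read against the shares of all genes tested. Lower and higher genes made up 20.2% and 21.4% for BptfΔ, 18.3% and 16.4% for WstfΔ, 16.7% and 15.1% for Acf1Δ, 13.1% and 7.45% for Rsf1Δ, 6.23% and 2.84% for Tip5Δ and 8.83% and 9.52% for the libraries labelled Cecr2Δ.

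Of 17 other genes of the formative and primed states, 12 were lower and 3 higher in BptfΔ (11 lower DEGs and 0 higher, against 8.59% and 5.25% of all genes), with a median log2 fold change of -1.39. In WstfΔ 9 were lower and 3 higher (7 lower DEGs and 1 higher, against 6.57% and 3.87%), with a median of -0.39. Lef1, a factor of Wnt signalling, fell in both, with log2 fold changes of -4.64 ± 0.40 SE in BptfΔ (edgeR adjusted p = 2.16e-10) and -3.80 ± 0.32 in WstfΔ (1.91e-10). The members that rose in both were Tcf15 and Foxd3. Counts of the list were 8 lower and 5 higher for Rsf1Δ, 6 and 4 for Acf1Δ, 3 and 1 for Tip5Δ and 3 and 3 for the libraries labelled Cecr2Δ, where the 8 genes had 6 higher and 0 lower.

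Naive pluripotency genes moved the other way in the same lines. Of 13, 11 were higher and 1 lower both in WstfΔ (median log2 fold change 0.85) and in BptfΔ (0.96), and 9 were higher and 0 lower in Rsf1Δ (0.41). Tbx3 rose most in WstfΔ, from 77.2 ± 0.57 to 216 ± 5.10 normalized CPM (SD, n = 2 each, edgeR adjusted p = 5.44e-15), and Prdm14, a repressor of FGF signalling in naive cells, rose most in BptfΔ, from 29.7 ± 0.63 to 94.0 ± 5.68 (1.67e-16). Dppa3, a germ cell and naive state gene, was the member that fell in both, with log2 fold changes of -3.14 ± 0.37 SE in WstfΔ and -4.02 ± 0.39 in BptfΔ (edgeR adjusted p at most 1.10e-07). Tip5Δ had 0 higher and 2 lower, Acf1Δ 3 and 4, and the libraries labelled Cecr2Δ 5 and 3. Of 5 general pluripotency genes, 1 was a DEG in any line, Lin28a in BptfΔ (log2 fold change -1.05 ± 0.057, edgeR adjusted p = 1.94e-14).

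Of 9 epithelial genes, a class that Grhl2 is known to activate, 5 were lower and 1 higher in both BptfΔ (20.2% and 21.4% of all genes) and WstfΔ (18.3% and 16.4%), with median log2 fold changes of -0.79 and -0.43. DEGs among them were 3 lower and 1 higher in BptfΔ (8.59% and 5.25% of all genes) and 2 and 1 in WstfΔ (6.57% and 3.87%). At any fold the counts were 6 and 1 for Acf1Δ, 3 and 1 for Rsf1Δ, 0 and 2 for Tip5Δ and 2 and 2 for the libraries labelled Cecr2Δ. A link of these changes to Grhl2 was not tested. Esrp1, a splicing regulator of epithelial cells, was at 0.85 ± 0.19 normalized CPM in BptfΔ and 43.9 ± 0.044 in WT (SD, n = 2 each, log2 fold change -5.68 ± 0.14 SE, edgeR adjusted p = 2.18e-21). It was also lower in WstfΔ (-2.39 ± 0.091, edgeR adjusted p = 1.83e-17) and Acf1Δ (-1.24 ± 0.085, 1.66e-11). Epcam, an adhesion protein, fell in BptfΔ from 159 ± 3.39 to 45.0 ± 0.33 normalized CPM (log2 fold change -1.83 ± 0.082, edgeR adjusted p = 3.03e-16).

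**Figure D5:**
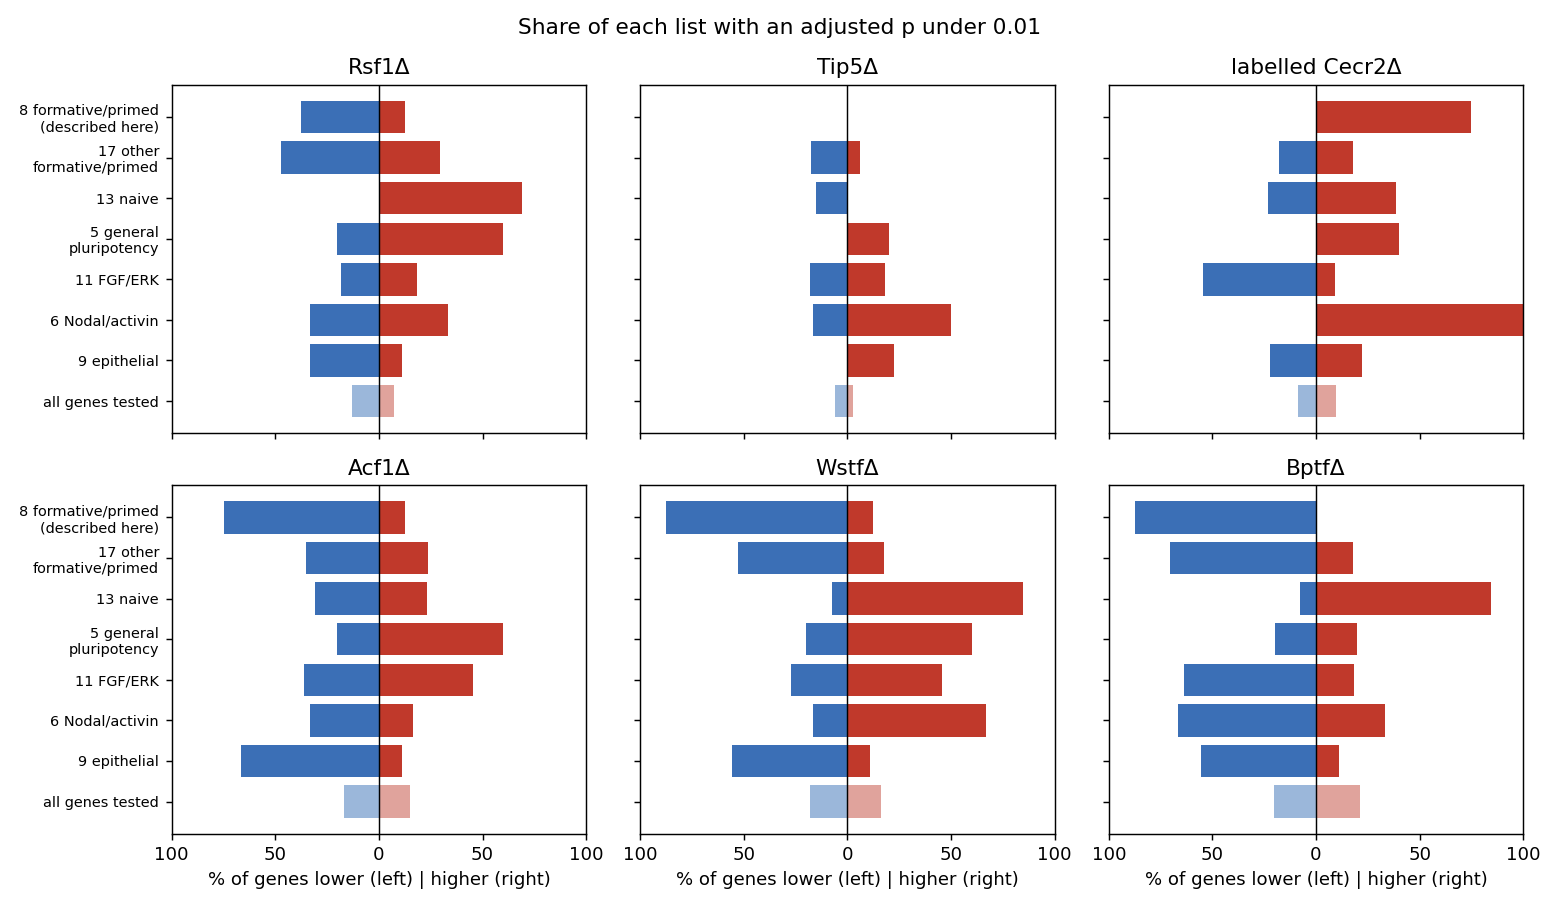
Share of each gene list with an edgeR adjusted p under 0.01, lower to the left in blue and higher to the right in red, for the 6 lines (panels), above the share of all genes tested (pale bars). In BptfΔ 7 of the 8 genes are lower and in WstfΔ 7 are lower and 1 higher, while 11 of 13 naive genes are higher in each.

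Markers of primitive endoderm, cells that arise in mESC cultures beside the epiblast state, moved with several of these results. Of 8 such markers, 8 were lower in each of Rsf1Δ, Tip5Δ, WstfΔ, BptfΔ and the libraries labelled Cecr2Δ, whereas in Acf1Δ 1 was lower and 3 higher. Their summed level was 1522 to 1913 normalized CPM in WT of batch A, 523 to 574 in Rsf1Δ and 502 to 527 in WstfΔ. It fell from between 1755 and 1873 to between 338 and 349 in Tip5Δ, from between 1084 and 1182 to between 164 and 171 in BptfΔ and from between 467 and 511 to between 111 and 117 in the libraries labelled Cecr2Δ. In Acf1Δ it was 1063 to 1418, against 953 to 1140 in WT. Lama1 was the most abundant of these markers, at a mean of 1384 normalized CPM in WT of batch A and 406 in Rsf1Δ. In batch B it was at 1471 in WT and 267 in Tip5Δ, so these sums mostly follow that 1 gene. None of the 8 markers was at 0 in any library. The 8 formative and primed genes stayed near WT in Tip5Δ and 6 of them rose in the libraries labelled Cecr2Δ, while these markers fell in both lines, and their part in the results was not tested.

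Markers of trophectoderm, streak and fibroblasts were scarce and those of the neural lineage were not. Summed levels of 5 trophectoderm markers were at most 17.8 normalized CPM, those of 7 streak and mesoderm markers at most 9.54 and those of 5 fibroblast markers at most 32.2. Trophectoderm markers were lower in 3 of 4 tested in Rsf1Δ, WstfΔ and the libraries labelled Cecr2Δ, in 2 in Acf1Δ and BptfΔ and in 1 in Tip5Δ, and fibroblast markers in 3 of 4 in each line but those labelled Cecr2Δ, with 0, and 1 fibroblast marker was higher in WstfΔ. Streak and mesoderm markers were lower in 2 of 6 tested in Acf1Δ and in 1 in BptfΔ and higher in 1 in WstfΔ. Of 4 neural markers tested, 2 were lower in Acf1Δ, WstfΔ and BptfΔ and 1 in Rsf1Δ and Tip5Δ, while 2 were higher in Rsf1Δ and Tip5Δ and 1 in WstfΔ, BptfΔ and the libraries labelled Cecr2Δ. The neural sum, with Nes and Tubb3 as its most abundant genes, was between 71.5 and 143 normalized CPM. Elf5, Hes5, Neurog2 and Postn were at 0 in between 7 and 17 of the 24 libraries. Lists this short give little by count, as 1 of 6 streak markers lower in BptfΔ stands against 20.2% of all genes. The 1 of 6 higher in WstfΔ stands against 16.4%, and 1 of 4 neural markers higher in BptfΔ against 21.4%. Counts of 1 gene in these lists are thus not read as a result. The part of these markers in the results was not tested.

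Genes whose pattern was most like that of each of the 8 were sought by Pearson's correlation over the 24 libraries of log2 normalized CPM, after subtracting the WT mean of the batch. The points share batches and clones, so r is given as a description. Grhl2 was most like Dctd (r = 0.986) and Igsf9 (0.983), Pou3f1 like Mycn (0.983) and Lrp8os2 (0.977), and Otx2 like Jakmip2 (0.982) and Prkch (0.976). Zic2 was most like its neighbour Zic5 (0.962) and Ahr (0.956). Sox4 was most like Otx2 (0.960) and Diaph1 (0.956), the only case in which a top match was another of the 8. Utf1 was most like Cdc34 (0.962) and Pkm (0.951), Sall2 like Rragd (0.955) and Tmem131l (0.944), and Fgf5, with its few counts, like Rab15 (0.951) and Erap1 (0.938).

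Overlapping transcripts could share reads with some of the genes. Otx2os1, annotated opposite Otx2, had at most 4 counts in any line library and was not tested. Gm49154 on the strand of Otx2, Gm2164 opposite Pou3f1 and Gm26735 opposite Sox4 were not analysed here. Fgf5, Utf1, Sall2 and Zic2 overlap no other annotated gene.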

How the data were processed

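Per the methods, the authors used QuasR with HISAT2 for spliced alignment to mm10 and deposited 1 table of raw counts per gene of the UCSC knownGene annotation, with gene widths in bases. How reads of several places, of overlapping genes or of either strand were counted is not given in the sources used here. Poly(A) RNA and a stranded TruSeq preparation are named in the labels, the TruSeq v2 kit in the methods. Symbols of 24570 of 24594 gene IDs and promoter windows came from RefSeq (GRCm38.p6), exons and overlaps from GENCODE.

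Counts were filtered (filterByExpr by genotype, 15682 genes kept), scaled with TMM and fitted with edgeR 4.0.16 in R 4.3.3 (quasi-likelihood, legacy form) with terms for batch and genotype over 24 libraries. P-values were adjusted over all genes tested (Benjamini-Hochberg). SE was derived from F as the size of the log2 fold change over the root of F. The steps were tested on simulated data. DESeq2 1.42.0 and other settings were alternatives. The genes, lists, named-gene rule and tests were chosen with earlier results of these data known. The rule named the 8 genes in full, at most 2 DEGs of each list and line, Zic5 and Otx2os1 as neighbours, and 2 genes most like each gene with a mean of at least 1 CPM. Rpph1, Gm16136, Tcf15 and Foxd3, and Pou5f1 and Nanog as mESC markers, were named outside it. Same-numbered libraries of a batch were checked for shared deviations. Libraries of a group differed beyond counting noise (chi-square per degree of freedom at least 1.38).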

Additional observations from a re-analysis of the deposited data

Results flagged for a closer look

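The change against WT differed between the 6 lines for each of the 8 genes, by a test of the difference itself (edgeR quasi-likelihood F-test, adjusted p at most 2.45e-06), as it did for 65.3% of all genes tested. The distance between the lowest and the highest log2 fold change was 4.50 for Fgf5 (Acf1Δ to the libraries labelled Cecr2Δ), 3.60 for Pou3f1 and 3.09 for Otx2 (both BptfΔ to the libraries labelled Cecr2Δ). It was 3.21 for Grhl2 (BptfΔ to Tip5Δ), 2.71 for Zic2 and 2.49 for Sall2 (both WstfΔ to the libraries labelled Cecr2Δ), 2.47 for Sox4 (BptfΔ to the libraries labelled Cecr2Δ) and 1.94 for Utf1 (BptfΔ to WstfΔ). Groups of a batch held 2 or 3 libraries, and the 11 WT libraries span all batches. No group was tested for a single outlying library.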

How the results depend on the processing

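Leaving out the batch term changed most: the DEGs among the 8 genes came to 0 for Rsf1Δ, 0 for the libraries labelled Cecr2Δ, 1 for Acf1Δ and 3 for WstfΔ, and the genes changed at any fold to 0, 0, 1 and 4. BptfΔ then had 6 DEGs, without Fgf5. With no batch term the log2 fold change also turned sign for Otx2 (0.14) and Utf1 (-0.046) in Rsf1Δ and for Fgf5 (-0.15) and Sall2 (-0.013) in the libraries labelled Cecr2Δ. Each line is then set against WT libraries of all batches. A test against a 2-fold change left 0 DEGs for Rsf1Δ, 0 for the libraries labelled Cecr2Δ and 1 for Acf1Δ, and 5 each for WstfΔ (without Fgf5) and BptfΔ (without Fgf5 and Utf1). In Tip5Δ, 1 gene was changed with no filter on low counts and 1 with batch B fitted alone. On leaving out 1 replicate, DEGs ranged from 0 to 1 in Rsf1Δ and in the libraries labelled Cecr2Δ, and changed genes from 2 to 3 in Rsf1Δ. Same-numbered libraries did not deviate together (correlations -0.157 to 0.049, with 1 value for each line of 2 replicates, whose deviations mirror each other, and 3 for the libraries labelled Cecr2Δ), so the numbers do not pair them. With the replicate block 1, 0, 1, 2, 6 and 7 DEGs were called in Rsf1Δ, Tip5Δ, the libraries labelled Cecr2Δ, Acf1Δ, WstfΔ and BptfΔ, and 1 call was lost (Otx2 in Rsf1Δ). With the numbers of batch E crossed, an alternative chosen after seeing the data like that without batch C, 2 DEGs and 7 changed genes were called in Acf1Δ. DESeq2, library size in place of TMM and the newer quasi-likelihood fit changed no call of the 48. Fgf5, which had the lowest WT level of the 8 genes, rests on few counts.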

Other observations

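Of 15 paralogues of the 8 genes, among them Zic5, 13 were tested, and 4 were lower and 3 higher in BptfΔ and 2 lower and 3 higher in WstfΔ. Over all genes tested 20.2% were lower and 21.4% higher in BptfΔ and 18.3% and 16.4% in WstfΔ, so these counts are near the background. Sall3, a relative of Sall2, rose in BptfΔ from 8.52 ± 1.24 to 29.3 ± 0.22 normalized CPM (mean ± SD of 2 libraries; log2 fold change 1.78 ± 0.17 SE, edgeR adjusted p = 1.13e-09), the line in which Sall2 was at its WT level, and in WstfΔ, where Sall2 fell, by 1.06 ± 0.18 on the log2 scale (edgeR adjusted p = 2.10e-05). Counts of paralogues were 5 lower and 0 higher for Acf1Δ, 2 and 3 for Rsf1Δ, 0 and 2 for the libraries labelled Cecr2Δ and 0 and 0 for Tip5Δ.

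Of 6 genes of Nodal and activin signalling, 4 were lower and 2 higher in BptfΔ, with 1 and 4 for WstfΔ, 2 and 2 for Rsf1Δ, 2 and 1 for Acf1Δ, 1 and 3 for Tip5Δ and 0 and 6 for the libraries labelled Cecr2Δ. Over all genes tested the shares lower and higher were 13.1% and 7.45% in Rsf1Δ and 16.7% and 15.1% in Acf1Δ. They were 6.23% and 2.84% in Tip5Δ and 8.83% and 9.52% in the libraries labelled Cecr2Δ, beside those of BptfΔ and WstfΔ above. Against these shares, 1 of 6 lower in WstfΔ and 1 of 6 higher in Acf1Δ are at the background. Lefty2, a Nodal inhibitor and target, fell in BptfΔ from 40.7 ± 0.67 to 3.94 ± 0.35 normalized CPM (SD, n = 2 each, edgeR adjusted p = 1.74e-19) and rose in WstfΔ from 21.8 ± 0.52 to 66.0 ± 1.51 (3.60e-15). Of 11 genes of FGF and ERK signalling, 7 were lower and 2 higher in BptfΔ, with 6 and 1 for the libraries labelled Cecr2Δ, 3 and 5 for WstfΔ, 4 and 5 for Acf1Δ, 2 and 2 for Rsf1Δ and 2 and 2 for Tip5Δ. Set against the same shares, the 2 of 11 higher in BptfΔ and the 1 higher in the libraries labelled Cecr2Δ are near the background. So are the 3 lower in WstfΔ and the 2 lower in Rsf1Δ. Egr1, an early response gene of ERK, was lower in BptfΔ (log2 fold change -3.18 ± 0.21 SE, edgeR adjusted p = 1.27e-12) and WstfΔ (-1.75 ± 0.11, 5.63e-13).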
